A study of Homo sapiens with 8 samples.

Results

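The glycolysis enzymes described here were 10 genes, HK1, HK2, GPI, PFKP, ALDOA, GAPDH, PGK1, ENO1, PKM and LDHA, of the 63677 genes counted in the RNA-seq of multiple myeloma (MM) cells. They were chosen by name from the pathway, and each symbol was matched to its Ensembl gene through the symbols deposited with the JJN3 results. All 10 were found. PGK1 had 2 Ensembl genes, of which the unused one had 0 counts. All 10 passed edgeR's filter on low counts in every comparison. The study used 2 human MM cell lines, JJN3 and H929, and exposed them for 24 h to THZ1 at 50 nM, a covalent inhibitor of the transcriptional kinase CDK7, or to the vehicle DMSO alone. Each line and treatment had 2 libraries, 8 in all, of single-end reads of 50 bases. No genotype change was introduced in these cells. Nothing in the labels says whether the 2 libraries of a group came from separate cultures, so the p-values measure the spread between these libraries, which may be technical.

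Glycolysis splits glucose into pyruvate and makes ATP and NADH on the way. Hexokinases trap glucose in the cell, phosphofructokinase commits it to the pathway, aldolase splits the sugar, and GAPDH, phosphoglycerate kinase, enolase and pyruvate kinase carry the fragments to pyruvate, which lactate dehydrogenase turns into lactate. Tumour cells often keep the pathway highly active even in the presence of oxygen, and MYC and HIF1A are well-known activators of its genes. GAPDH is also one of the most used reference genes in quantitative PCR: the level of another mRNA is divided by that of GAPDH, so a change of GAPDH between conditions enters every such ratio. In this study GAPDH was the reference for qRT-PCR of MYC, IRF4, MAF, ST3GAL6 and ADM, with THZ1 at a lower dose than in the RNA-seq. The study also measured other selected genes in JJN3 at the dose and time of the RNA-seq.

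The GAPDH primers are shown because they define which part of the mRNA served as the reference. They are printed in capitals over their whole length:
GAPDH-F: GTCTCCTCTGACTTCAACAGCG
GAPDH-R: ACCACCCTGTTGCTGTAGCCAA
On the GAPDH transcript they bound a product of 131 bases. In the GRCh37 genome, the same build as hg19, the forward primer lies at chr12:6647068-6647089 and the reverse primer at chr12:6647281-6647302 on the opposite strand. From genomic DNA of the gene itself the product would be 235 bases, since an intron lies between the primers. The forward primer had 3 exact matches in the genome and the reverse primer 16, most of them in GAPDH pseudogenes. Both matched facing each other within 2000 bases at 2 places, GAPDH and the pseudogene GAPDHP71 at chr5:173941140-173941276, with a product of 137 bases there.

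The promoters of GAPDH and LDHA are shown because the genes moved in opposite directions in JJN3. Each is the 250 bases before the transcription start in RefSeq (GRCh38.p14). Capitals mark CACGTG, the E-box that MYC and MAX bind, and ACGTG, a form of the core of the hypoxia response element, read on both strands. Every CACGTG also holds ACGTG.
GAPDH, chr12:6535014-6535263, plus strand: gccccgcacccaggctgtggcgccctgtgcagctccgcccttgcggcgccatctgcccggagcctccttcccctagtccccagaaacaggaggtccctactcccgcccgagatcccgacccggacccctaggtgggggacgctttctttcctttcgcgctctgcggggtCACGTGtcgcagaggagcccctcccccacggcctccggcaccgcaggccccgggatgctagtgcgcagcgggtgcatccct
LDHA, chr11:18394313-18394562, plus strand, the more upstream of its 2 starts: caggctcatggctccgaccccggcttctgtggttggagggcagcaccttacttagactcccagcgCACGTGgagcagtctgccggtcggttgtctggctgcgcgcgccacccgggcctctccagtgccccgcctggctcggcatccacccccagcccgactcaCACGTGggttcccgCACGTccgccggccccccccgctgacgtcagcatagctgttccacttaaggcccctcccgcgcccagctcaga
CACGTG was found in at least 1 window of 4 of the 10 genes, HK2, ALDOA, GAPDH and LDHA, and in 4 of their 23 windows in all, against 6.34% of 35116 windows of the same length over all genes. ACGTG was found for 7 of the 10 genes and in 10 of the 23 windows, against 18.5% of all windows. GCGTG, the other form of that core, was found for 6 of the 10 genes and in 7 of the 23 windows, against 32.2% of all windows. Several windows belong to 1 gene and overlap, and a match of letters is not a site of binding. GAPDH and LDHA both held CACGTG, and PKM held none of these letters. The part of these letters in the changes of the genes was not tested.

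Total counts lay between 17476443 and 19194371 per library, at which 3 counts, the limit that a count of 0 allows, correspond to 0.156 to 0.172 CPM (counts scaled to the library total); this limit covers counting error only. The libraries labelled H929 DMSO and H929 THZ1 differed in markers of cell identity. Lambda genes took 98% to 100% of the light chain V counts under the label H929 DMSO and 0.194% to 0.203% under H929 THZ1, with 0.244% to 0.369% in JJN3. FGFR3, active in H929 through its translocation, was counted 45 and 285 times under H929 DMSO and 14117 and 13411 times under H929 THZ1. Correlations of log2 CPM across 14530 genes, which are not independent replicates, were 0.695 to 0.754 between the DMSO and THZ1 labels of H929 and 0.959 to 0.966 between those of JJN3. Differences between the H929 labels are therefore given for the libraries as labelled, and a response to THZ1 cannot be told apart in them from a difference of cells. Of 8 plasma cell markers, 7 were at 1 CPM or more in both libraries labelled H929 DMSO and all 8 in the other groups. Summed markers of T cells were at 2.51 to 34.6 CPM over all libraries. The highest sums, under H929 THZ1, were nearly all CD3E (33.6 and 34.3 CPM). CD8A went the other way, with 121 and 108 counts under H929 DMSO and 0 under H929 THZ1. Summed myeloid markers were at 26.1 to 33.7 CPM under H929 DMSO, mostly ITGAM, and at most 0.489 CPM in the other groups. Summed markers of stromal and epithelial cells were at 333 to 358 CPM in the libraries labelled H929 DMSO, 0.686 to 0.788 CPM in those labelled H929 THZ1 and 82 to 115 CPM in JJN3.

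In JJN3, the question was whether THZ1 changed the enzymes and the reference gene. HK2, PFKP and LDHA fell, by 1.85-fold, 1.99-fold and 1.94-fold, GAPDH and PKM rose by 1.44-fold and 1.58-fold, and the other 5 members made no call. So 3 of 10 were lower and 2 of 10 higher, beside 21.3% lower and 20.6% higher among all 13984 genes tested. The 10 members had a median log2 fold change of 0.17, against 0.00 over all genes. A call required an adjusted p under 0.05 (edgeR's quasi-likelihood test, Benjamini-Hochberg over all genes tested) and a log2 fold change beyond 0.5, and values below are CPM after TMM normalization. In bulk RNA, fewer cells with an mRNA and less of it per cell cannot be told apart.

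**Figure D1:**
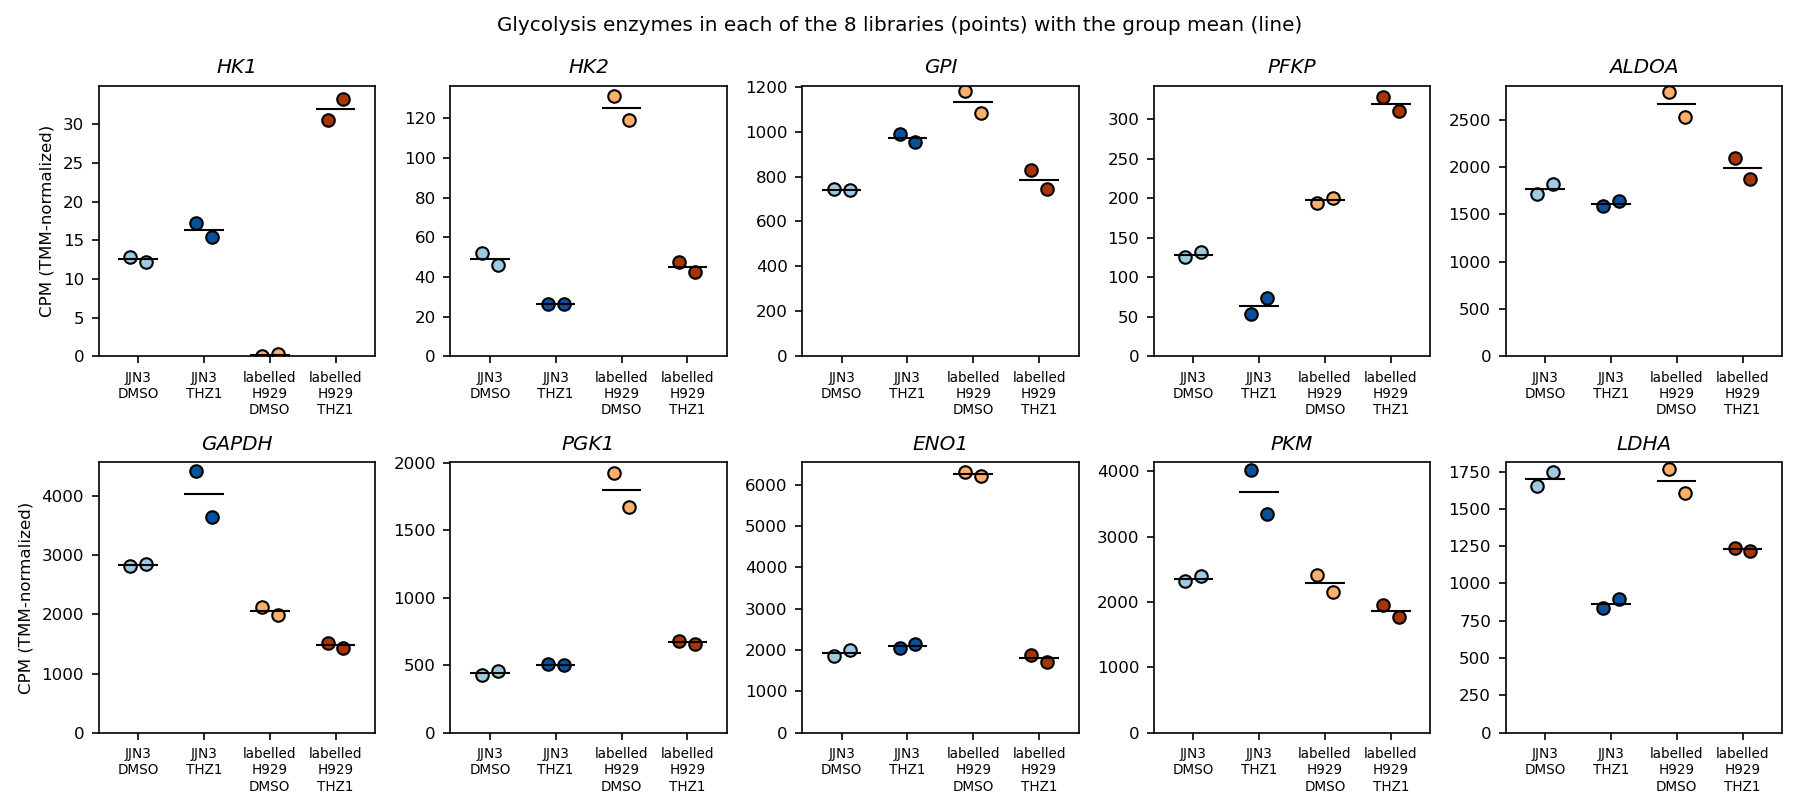
TMM-normalized CPM (y axis, linear from 0, a separate scale for each gene) of the 10 glycolysis enzymes in each library, with points for libraries and a line for the mean of the 2 libraries of a group (x axis). In JJN3, THZ1 lies below DMSO for HK2, PFKP and LDHA and above it for GAPDH and PKM, and HK1 is near 0 in the libraries labelled H929 DMSO (0.0538 and 0.332 CPM).

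Glucose enters the pathway through the hexokinases. HK2 (chr2:75061254-75120486, plus strand, 18 exons), the inducible hexokinase of many tumours, had 52.1 and 46.1 CPM in JJN3 with DMSO and 26.3 and 26.4 CPM with THZ1. The groups did not overlap, as in 79.9% of all genes tested, and the 2 THZ1 libraries were nearly equal. HK2 fell by 0.88 on the log2 scale (SE 0.098, adjusted p = 2.2e-05 by edgeR). HK1 (chr10:71029740-71161640, plus strand, 18 exons), the hexokinase of most adult tissues, had 12.9 and 12.2 CPM with DMSO and 17.3 and 15.4 CPM with THZ1. Its log2 fold change was 0.39 (SE 0.13, edgeR adjusted p = 0.0211), under the limit on size. Per kilobase of exon, HK1 made up 17.6% and 18.6% of the summed HK1 and HK2 level with DMSO and 36.2% and 33.4% with THZ1. With the length of the canonical transcript the shares were 27.9% and 29.3%, then 50.7% and 47.7%. Either way both THZ1 libraries had the larger share of HK1, and HK2 was no longer far above HK1.

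The next steps isomerise and phosphorylate the sugar. GPI (chr19:34850385-34893318, plus strand), glucose-6-phosphate isomerase, had 746 and 738 CPM with DMSO and 988 and 952 CPM with THZ1 in JJN3, a log2 fold change of 0.40 (SE 0.094, edgeR adjusted p = 0.00348), again under the limit on size. PFKP (chr10:3108525-3179910, plus strand, 22 exons), the platelet-type phosphofructokinase, had 125 and 132 CPM with DMSO and 53 and 74.2 CPM with THZ1. The 2 THZ1 libraries were farther apart than those of any group of HK2 or GPI in JJN3 in relative terms, but both were well below DMSO, and PFKP fell by 0.99 on the log2 scale (SE 0.13, edgeR adjusted p = 6.8e-05). The other phosphofructokinases did not follow in the same way. PFKL, the liver type, rose by 0.61 (edgeR adjusted p = 6.24e-05), and PFKM, the muscle type, was at -0.50 (edgeR adjusted p = 0.00117), just inside the limit. Per kilobase of exon, PFKP was 56.2% and 56.2% of the sum of PFKP and PFKL with DMSO and 25.9% and 33.1% with THZ1.

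Aldolase cleaves the sugar into triose phosphates. ALDOA (chr16:30075485-30081778, plus strand) had 1715 and 1817 CPM with DMSO and 1584 and 1642 CPM with THZ1. The groups did not overlap, but the difference was small (log2 fold change -0.11, SE 0.11, edgeR adjusted p = 0.372). ALDOC, the brain-type aldolase, rose by 1.07 (edgeR adjusted p = 4.6e-06), from 1056 and 975 counts to 1659 and 2073. ALDOA remained the main form per kilobase of exon, 95.5% and 96.1% of the sum of the 2 with DMSO and 91.4% and 90.7% with THZ1.

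GAPDH (chr12:6643678-6647540, plus strand, 9 exons), which oxidises glyceraldehyde 3-phosphate, had 2819 and 2848 CPM in JJN3 with DMSO and 4418 and 3638 CPM with THZ1. The 2 DMSO libraries were nearly equal, both THZ1 libraries were above them, and the THZ1 libraries differed from each other by nearly as much as the lower of them differed from DMSO. The mean was 2834 ± 20.5 CPM with DMSO and 4028 ± 552 CPM with THZ1 (SD, n = 2 each), and the log2 fold change was 0.52 (SE 0.13, edgeR adjusted p = 0.00488), only just past the limit of 0.5. Leaving out THZ1 replicate 1 gave 0.37, under the limit, and leaving out THZ1 replicate 2 gave 0.66. The call was also lost without DMSO replicate 1 (0.50, edgeR adjusted p = 0.0684) or DMSO replicate 2 (0.52, edgeR adjusted p = 0.0611), without the filter on low counts (0.48), and on the scale of total counts (0.42), a scaling that moved the median of all genes by -0.10. The log2 fold change was above 0 in every alternative run other than scaling to GAPDH itself, which sets it to 0, and the adjusted p reached 0.0684.

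PGK1 and ENO1 carry the pathway onward from GAPDH. PGK1 (chrX:77166236-77384792, plus strand), phosphoglycerate kinase, had 429 and 459 CPM with DMSO and 510 and 498 CPM with THZ1 (log2 fold change 0.20, SE 0.088, edgeR adjusted p = 0.0747). ENO1 (chr1:8921059-8939249, minus strand), the main enolase of non-muscle tissue, had 1859 and 1999 CPM with DMSO and 2049 and 2139 CPM with THZ1 (log2 fold change 0.13, SE 0.11, edgeR adjusted p = 0.316). For both genes the 2 groups lay close together and no difference was called. Muscle enolase ENO3, at 47 and 60 counts with DMSO, rose to 114 and 110 counts (log2 fold change 1.26, edgeR adjusted p = 0.000521).

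The pathway ends with PKM and LDHA, which moved in opposite directions in JJN3. PKM (chr15:72491370-72524160, minus strand), pyruvate kinase of muscle and proliferating cells, whose 2 splice forms are summed in a gene count, had 2320 and 2391 CPM with DMSO and 4022 and 3353 CPM with THZ1. PKM rose by 0.66 on the log2 scale (SE 0.13, edgeR adjusted p = 0.000966). LDHA (chr11:18416107-18429972, plus strand), which reduces pyruvate to lactate, had 1654 and 1747 CPM with DMSO and 833 and 898 CPM with THZ1. LDHA fell by 0.96 (SE 0.1, edgeR adjusted p = 2.02e-05), and the call held without any of the libraries (-1.02 to -0.91). LDHB, the heart-type subunit, had a log2 fold change of -0.13 (edgeR adjusted p = 0.26). Per kilobase of exon, LDHA was 51.5% and 52.4% of the sum of LDHA and LDHB with DMSO and 36.9% and 38.6% with THZ1.

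**Figure D2:**
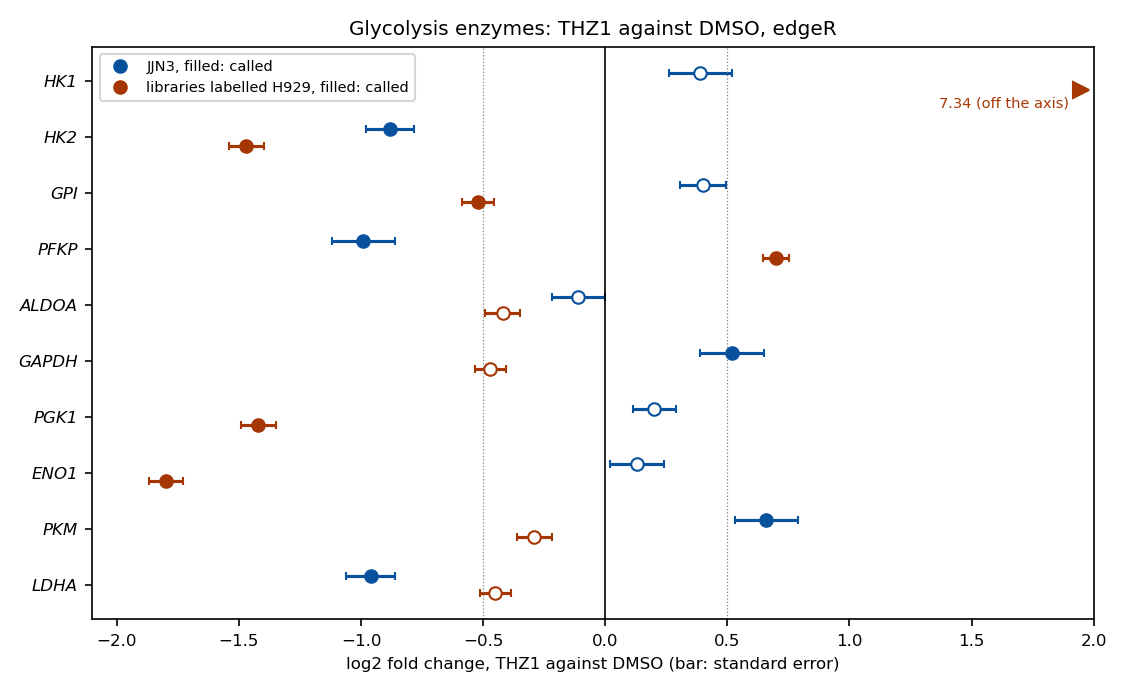
Log2 fold change of THZ1 against DMSO (x axis) with its standard error (bars) for each glycolysis enzyme (y axis, in the order of the pathway), in JJN3 (blue) and between the libraries labelled H929 (brown), with filled points for calls, open points for none and dotted lines at the limit of 0.5. In JJN3 the calls are HK2, PFKP and LDHA to the left and GAPDH and PKM to the right, and the value of HK1 under the H929 labels, 7.34, lies off the axis.

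Between the libraries labelled H929, 4 members were lower with the THZ1 label (HK2, GPI, PGK1 and ENO1) and 2 higher (HK1 and PFKP), beside 32.6% lower and 33.1% higher among 14863 genes tested, and all 10 had groups that did not overlap, as did 91% of all genes. The median log2 fold change of the members was -0.46, against 0.01 over all genes. ENO1 had 6310 and 6217 CPM in the libraries labelled DMSO and 1877 and 1717 CPM in those labelled THZ1, and fell by 1.80 on the log2 scale (SE 0.069, edgeR adjusted p = 1e-12). Both DMSO-labelled libraries were far above all the others, which lay between 1717 and 2139 CPM.

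PGK1 had a like pattern, with 1927 and 1674 CPM in the libraries labelled H929 DMSO and 682 and 656 CPM in those labelled H929 THZ1 (log2 fold change -1.42, SE 0.07, edgeR adjusted p = 2.2e-11). HK2 had 131 and 119 CPM, then 47.5 and 42.4 CPM (log2 fold change -1.47, SE 0.071, edgeR adjusted p = 1.5e-11). GPI had 1181 and 1082 CPM, then 828 and 744 CPM, a log2 fold change of -0.52 (SE 0.066, edgeR adjusted p = 2.43e-06) that passed the limit narrowly and did not pass it with DESeq2 (-0.50), with DESeq2's size factors (-0.49), with total counts (-0.47), or without DMSO replicate 1 (-0.46) or THZ1 replicate 2 (-0.44). In each of the 4 genes both DMSO-labelled libraries were the higher.

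PFKP had 194 and 200 CPM in the libraries labelled H929 DMSO and 328 and 310 CPM in those labelled H929 THZ1, and rose by 0.70 (SE 0.053, edgeR adjusted p = 4.39e-09), the opposite of its direction in JJN3. HK1 was counted only 1 and 6 times under the DMSO label, against 583 and 632 in those labelled THZ1. Pooled over libraries the ratio was 167 (95% exact counting interval 81 to 417), for counting error only. It was 595 against DMSO replicate 1 alone (107 to 23512) and 96.3 against replicate 2 alone (44.1 to 263), and the fitted log2 fold change of 7.34 became 9.07 without replicate 2 and 6.56 without replicate 1. HK1 was the sole member near absence in any group, and HK2 per kilobase of exon made up nearly the whole of the hexokinase pair there, with 0.0352% and 0.239% HK1.

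The remaining members had smaller differences, all downward and under the limit on size. GAPDH had 2132 and 1995 CPM in the libraries labelled H929 DMSO and 1524 and 1435 CPM in those labelled H929 THZ1 (log2 fold change -0.47, SE 0.064, edgeR adjusted p = 4.67e-06). It passed the limit at -0.51 without DMSO replicate 2 or without THZ1 replicate 1. LDHA had 1764 and 1609 CPM, then 1241 and 1218 CPM (-0.45, edgeR adjusted p = 7.38e-06). ALDOA had 2797 and 2531 CPM, then 2097 and 1877 CPM (-0.42, edgeR adjusted p = 6.15e-05), and PKM 2420 and 2149 CPM, then 1947 and 1777 CPM (-0.29, edgeR adjusted p = 0.00159). Each of these genes was thus lower in both THZ1-labelled libraries than in both DMSO-labelled libraries.

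An interaction term fitted over all 8 libraries tested the difference of the 2 responses, the change under the H929 labels minus that in JJN3. It was negative and called for 6 members and positive and called for 3, beside 25.5% and 28.1% of 16122 genes tested. ENO1 (-1.92) and PGK1 (-1.61) differed most among the negative ones, followed by GAPDH (-0.99, SE 0.13, edgeR adjusted p = 6.18e-06), PKM (-0.94), GPI (-0.91) and HK2 (-0.58). HK1 (6.96), PFKP (1.70) and LDHA (0.52) were positive, and ALDOA was at -0.29 (SE 0.12, edgeR adjusted p = 0.0427), under the limit. LDHA thus fell further in JJN3, and HK2 further under the H929 labels, but the call for HK2 was lost with total counts (-0.44), without the filter on low counts (-0.50) and without H929 DMSO replicate 1 (-0.50), H929 THZ1 replicate 2 (-0.48) or JJN3 DMSO replicate 2 (-0.48). That of LDHA was lost without H929 DMSO replicate 2 (0.49), JJN3 DMSO replicate 2 (0.50) or JJN3 THZ1 replicate 1 (0.48). These differences carry the difference of cells between the H929 labels described above.

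The lines were also compared at the same treatment label. With DMSO, 6 members were higher in the libraries labelled H929 than in JJN3 and 1 was lower, beside 30.8% higher and 30.7% lower among all genes. PGK1 (log2 difference 2.02) and ENO1 (1.70) were the largest of the higher ones, with HK2 at 1.35, PFKP at 0.62, GPI at 0.61 and ALDOA at 0.59. HK1 was lower (fitted -5.99, from 12.9 and 12.2 CPM in JJN3 and the 1 and 6 counts above). GAPDH was at -0.46 (edgeR adjusted p = 0.000302), while LDHA (-0.01, SE 0.079, edgeR adjusted p = 0.903) and PKM (-0.04, SE 0.096, edgeR adjusted p = 0.69) overlapped between the groups, and the other 8 members did not overlap, as 87.3% of all genes. With THZ1, GAPDH (-1.45) and PKM (-0.99) were lower and PFKP (2.32), HK1 (0.97), HK2 (0.77) and LDHA (0.51) higher in the libraries labelled H929, beside 32.3% lower and 31.6% higher among all genes, and all 10 had groups that did not overlap, as did 87.2% of all genes. LDHA was at 0.49, under the limit, without JJN3 THZ1 replicate 1. In the order of the 4 groups GAPDH was highest in JJN3 with THZ1, then JJN3 with DMSO, then H929 DMSO, then H929 THZ1, with no overlap between neighbours, and PFKP stood in the reverse order, also with no overlap.

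**Figure D3:**
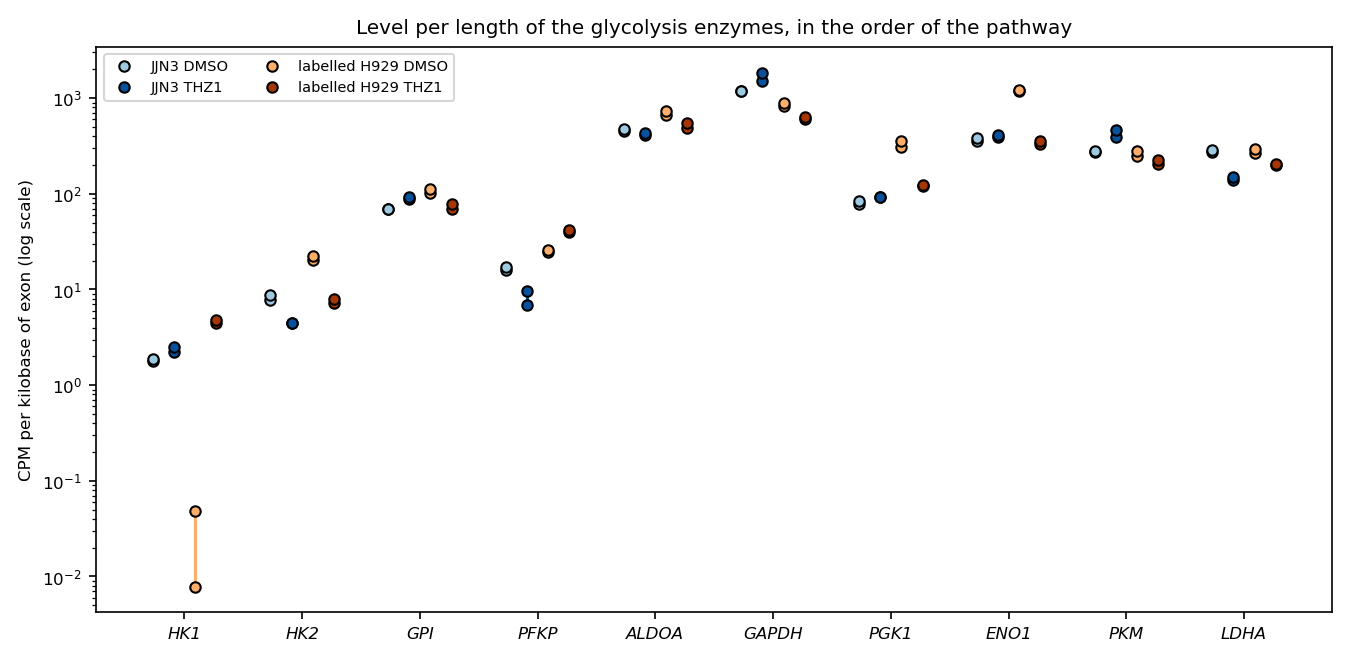
CPM per kilobase of exon (y axis, log scale) of the 10 enzymes in the order of the pathway (x axis), with a point for each library, coloured by group. HK1 and HK2 at the entry and PFKP lie below the members from ALDOA onward in every library, and ENO1 in the libraries labelled H929 DMSO (1192 and 1210) is above GAPDH there (833 and 890).

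Levels between members were compared per kilobase, with the bases covered by any exon of the gene as its length. GAPDH was the highest member in JJN3 with DMSO (1177 and 1189 CPM per kilobase), in JJN3 with THZ1 (1518 and 1844) and in the libraries labelled H929 THZ1 (599 and 636). In the libraries labelled H929 DMSO, ENO1 stood above it, at 1192 and 1210 against 833 and 890. The entry and commitment enzymes were the lowest: HK1 ranged from 0.00782 to 4.85 CPM per kilobase over the 8 libraries, HK2 from 4.44 to 22.2, and PFKP from 6.82 to 42.1. GPI (69.1 to 111) and PGK1 (79 to 354) were intermediate and overlapped, and ALDOA (414 to 731), ENO1 (329 to 1210), PKM (207 to 469) and LDHA (138 to 293) were high. GAPDH was 5.19 times the median member on the median over libraries. This ratio was 3.88 with the length of the canonical transcript, and with that length ENO1 came before ALDOA and GPI before PGK1 in the order of the medians, the reverse of their order by exon bases. GAPDH was again the highest member in both JJN3 groups with that length. In the libraries labelled H929 THZ1, however, ALDOA (1144 to 1279) then had a higher median than GAPDH (1117 to 1186), and in those labelled H929 DMSO GAPDH (1553 to 1659) came after ENO1 and ALDOA (1543 to 1706), with ALDOA and GAPDH overlapping in both groups.

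GAPDH as a reference was set beside 17 other genes in common use as qPCR references. In JJN3, POLR2A (2.32, edgeR adjusted p = 9.9e-08), B2M (0.74, edgeR adjusted p = 0.00068) and GUSB (0.52, edgeR adjusted p = 0.000872) rose, while 13 made no call, and 20.6% of all genes rose. GUSB was not called without DMSO replicate 1 (0.44) or THZ1 replicate 1 (0.38). The median of the 17 was 0.32. POLR2A, the largest subunit of RNA polymerase II, went from 1819 and 1675 counts to 7305 and 7966. Actin ACTB (0.37, SE 0.13, edgeR adjusted p = 0.0319) and tubulin TUBA1A (0.37, SE 0.12, edgeR adjusted p = 0.0237) lay under the limit on size, and RPL13A (0.02, SE 0.092) and YWHAZ (0.02, SE 0.096) were the nearest to 0. Of all genes tested in JJN3, 76.9% had a lower log2 fold change than GAPDH, and of the 69 genes with a mean of at least 1000 CPM, 46 did.

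Under the H929 labels 6 of the 17 were lower and 3 higher, shares near or below the 32.6% lower and 33.1% higher among all genes, and the median was 0.10. TBP (-1.42), EEF1A1 (-1.12) and HPRT1 (-0.72) were the largest falls, with ACTB at -0.68, and POLR2A (1.00) and IPO8 (0.86) were among the rises. All 6 of these had edgeR adjusted p-values of at most 7.06e-08. TUBA1A was at 0.14 (SE 0.12, edgeR adjusted p = 0.272) and RPL13A at 0.02 (SE 0.062, edgeR adjusted p = 0.766). RPL13A was thus within 0.02 of 0 in both comparisons, whereas GAPDH, at 0.52 and -0.47, was on opposite sides of 0.

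**Figure D4:**
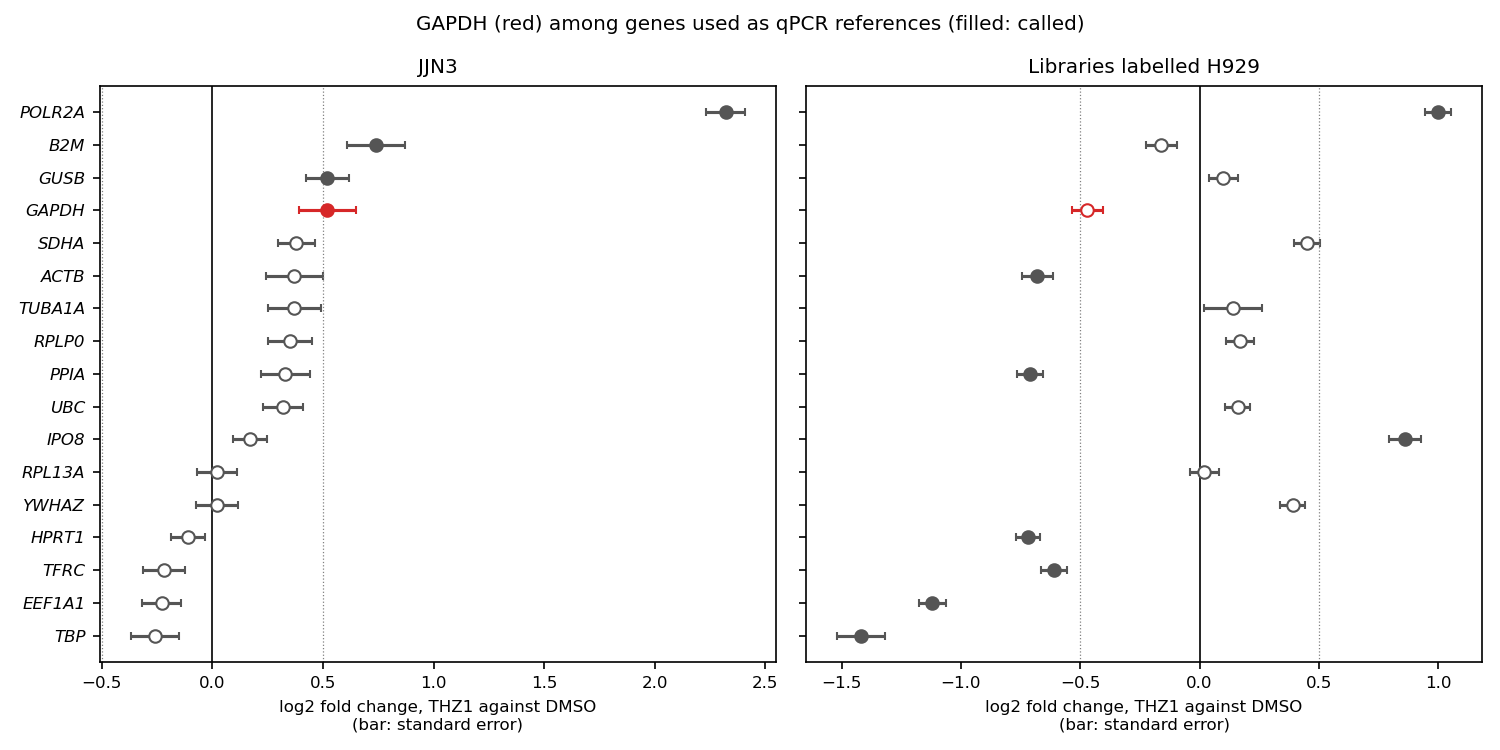
Log2 fold change of THZ1 against DMSO (x axis) with its standard error (bars) for GAPDH (red) and 16 of the 17 genes used as qPCR references (grey), ordered by their value in JJN3, in JJN3 (left) and between the libraries labelled H929 (right), with filled points for calls. GAPDH is at 0.52 in JJN3 and -0.47 on the right, and RPL13A is at 0.02 in both.

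The genes that the study measured against GAPDH were recomputed with the GAPDH count of each library as its scale. The paper's qRT-PCR of these genes used a lower dose of THZ1 than the libraries did. The values below are therefore not those of its ratios. At the lower dose the paper reports MYC, IRF4, MAF, ST3GAL6 and ADM as lower with THZ1. It reports little or no effect of THZ1 on GAPDH and TUBA1A. Whether GAPDH changed at the lower dose was not tested here. In JJN3, MYC counts were 22083 and 22167 with DMSO and 10047 and 12233 with THZ1, a log2 fold change of -0.80 after TMM and -1.30 relative to GAPDH. IRF4 went from -0.55 to -1.06 and MAF from -0.59 to -1.10, so that each of the 3 falls was larger on that scale. ST3GAL6 rose by 0.73 after TMM (edgeR adjusted p = 2.12e-05) and was at 0.23 relative to GAPDH (edgeR adjusted p = 0.284), where it was not called. ADM rose by 1.26 after TMM and by 0.76 relative to GAPDH. Between the H929 labels the shift was the other way: MYC was at -4.12 after TMM and -3.64 relative to GAPDH, MAF at -2.64 and -2.16, ADM at -1.99 and -1.51, IRF4 at 0.96 and 1.43, and ST3GAL6 at 4.16 and 4.62. Scaling to GAPDH moved the median of all genes by -0.51 in JJN3 and by 0.47 between the H929 labels, and of all calls in JJN3 the share that was higher went from 49.2% to 13.9%.

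Near-identical copies limit what a count of these genes can show, since reads that mapped to more than a single place were left out of the counts. Of the windows of 50 bases along the canonical transcript, 25.6% of those of GAPDH were found without a mismatch elsewhere in GRCh37, 16.7% of those of LDHA, 15.5% of HK2, 9.62% of GPI and 8.34% of PGK1. The share was at most 4.34% for ENO1, PKM, ALDOA, HK1 and PFKP. GAPDH had 59 pseudogenes in the count table, and their summed counts were 97 to 195 per library, or 0.174% to 0.467% of the GAPDH count. Those of LDHA reached 2.05% of the LDHA count: LDHAP7 was counted 440 and 471 times and LDHAP4 116 and 110 times under H929 DMSO, against 135 and 168 and 42 and 41 in those labelled H929 THZ1 and at most 4 each in JJN3. Of the exon bases of GAPDH, 17.6% also belong to another annotated gene, RP5-940J5.9, which was at 0 in all 8 libraries. The strand setting of the counting was not given in the sources used here, so reads in such stretches cannot be assigned to a strand.

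The other genes of glucose metabolism were read from 7 lists. In JJN3, of 22 isoforms and steps of glycolysis outside the 10 members, 10 were tested, of which 3 rose (ENO3, ALDOC and PFKL) and none fell, with TPI1, triose phosphate isomerase, at 0.19 (SE 0.086, edgeR adjusted p = 0.0829). Of 10 transport genes tested, SLC2A1, the main glucose transporter of proliferating cells, fell by 0.88 (edgeR adjusted p = 3.17e-05) and SLC2A8 by 0.82 (edgeR adjusted p = 0.000629). BSG, the chaperone of the lactate transporters (0.90, edgeR adjusted p = 3.85e-05), SLC2A13 (0.88), the lactate exporter SLC16A3 (0.75) and SLC16A7 (0.62) rose. SLC16A3, counted 50 and 65 times with DMSO and 74 and 96 times with THZ1, was not called with DESeq2 (adjusted p = 0.121) or without DMSO replicate 1 (0.56) or THZ1 replicate 2 (0.63), nor was SLC16A7 without DMSO replicate 2 (0.47).

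Of 16 tested regulators of flux and of pyruvate entry into mitochondria in JJN3, PDHB, a subunit of pyruvate dehydrogenase (-0.77), and MPC1, part of the mitochondrial pyruvate carrier (-0.76), fell, and PDK3, a kinase that inhibits pyruvate dehydrogenase (1.03), the phosphatase PDP1 (0.83), its regulator PDPR (0.79) and PFKFB2 (0.75) rose. In the pentose phosphate pathway 8 were tested, of which TKT, transketolase, fell by 0.77 and PGLS by 0.63, though PGLS was at -0.39 without THZ1 replicate 1. Of 3 tested gluconeogenesis genes, PCK2 fell by 1.26 (edgeR adjusted p = 1.01e-05). Of 10 tested glycogen genes GYS1 (-0.95), GYG1 (-0.81) and PGM1 (-0.71) fell and PGM2L1 (0.87) and PYGB (0.66) rose. All of these called genes had an edgeR adjusted p of at most 0.0082. The list medians were 0.27 for isoforms, 0.51 for transport, 0.29 for regulators, -0.42 for gluconeogenesis, -0.04 for the pentose phosphate pathway and -0.08 for glycogen, against 0.00 over all genes.

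Among transcription factors that act on glycolysis genes, MYC fell by 0.80 in JJN3 (edgeR adjusted p = 5.13e-05) and HIF1A rose by 0.90 (edgeR adjusted p = 4.56e-06), counted 2204 and 2127 times with DMSO and 3370 and 3723 times with THZ1. Under the H929 labels MYC was at -4.12, HIF1A at -0.37 (edgeR adjusted p = 1.94e-05, no call) and ARNT, the partner of HIF1A, at 1.49. The part of these factors in the values of the enzymes was not tested.

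Over the 8 libraries the genes whose log2 CPM was most like that of GAPDH, among 8914 with a mean log2 CPM of at least 3, were AP2M1 (Pearson r = 0.998), YBX1 (0.997), POLR1D (0.996), APC (0.995) and C7orf73 (0.994). Among the members PKM was closest (r = 0.94) and PFKP farthest (r = -0.99), while ENO1 was closest to PGK1 (r = 0.94). These values describe 8 libraries that fall into 4 groups and share their normalization, and carry no test. AP2M1, a subunit of the clathrin adaptor, had 749 and 754 CPM in JJN3 with DMSO and 1144 and 998 CPM with THZ1, and 528 and 526 CPM, then 390 and 361 CPM, in the libraries labelled H929.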

How the data were processed

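RNA-seq of JJN3 and of libraries labelled H929, with THZ1 or DMSO, was analysed from the counts per Ensembl gene that the authors deposited. Per the submitters' processing notes and the study's methods, reads were aligned to hg19 with STAR 2.5.2a, reads mapping to more than a single place were dropped, and the rest were counted with featureCounts, with no normalization. The deposited tables of the authors' own DESeq2 1.12.4 comparisons hold fold changes and p-values and were not used, except for the gene symbols of the JJN3 table. Groups and replicate numbers came from the sample labels.

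Counts were tested with edgeR 4.0.16 in R 4.3.3 (filterByExpr, TMM, quasi-likelihood, Benjamini-Hochberg), within each line for THZ1 against DMSO and over all 8 libraries for the other comparisons, and called at an adjusted p under 0.05 and a log2 fold change beyond 0.5. CPM values were TMM-normalized over all 8 libraries. The tests were tried on simulated data. DESeq2 1.42.0, other scalings, filters and limits, the replicate block, pseudogene counts added to their member, and leaving out each library were alternatives. The count tables give no gene length, so lengths came from GENCODE v44 on GRCh37, later than the annotation of the counts. The genes named outside the members were, per list and comparison, up to 3 called falls and 3 called rises, with TPI1, ACTB, TUBA1A, the genes measured against GAPDH, the 5 genes most like GAPDH and pseudogenes with at least 100 counts; other isoforms and reference genes beside a member (LDHB, RPL13A and YWHAZ) and GAPDHP71 were named after their values were seen. Some genes of the lists are counted in them but not reported here by name. The members and lists were chosen with earlier results of these data known. Depth per library is given in the results; counting intervals were exact at 95%.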

Additional observations from a re-analysis of the deposited data

Results flagged for a closer look

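The response to THZ1 differed between JJN3 and the H929 labels, by the interaction test of edgeR over all 8 libraries, for 9 of the 10 glycolysis enzymes. Among all 16122 genes tested, 25.5% were called lower and 28.1% higher by the same test. The difference (H929 labels minus JJN3, log2) was 6.96 for HK1, -0.58 for HK2, -0.91 for GPI, 1.70 for PFKP, -0.99 for GAPDH, -1.61 for PGK1, -1.92 for ENO1, -0.94 for PKM and 0.52 for LDHA. With a library left out, HK2 ranged from -0.65 to -0.48 and LDHA from 0.48 to 0.60, so both calls could be lost. The direction itself was opposite in the 2 comparisons, with a call in both, for PFKP alone (-0.99 in JJN3 and 0.70 under the H929 labels). The libraries labelled H929 DMSO and H929 THZ1 differ in light chain type and FGFR3, so these differences cannot be told apart from a difference of cells. With 2 libraries a group, single libraries were not tested for standing apart.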

How the results depend on the processing

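The limits on size and the choice of scale moved the counts most. GAPDH in JJN3 (0.52) was at 0.42 with total counts, 0.48 without the filter and 0.37 to 0.66 when a library was left out, and under the H929 labels (-0.47) at -0.51 to -0.42. Of the members in JJN3, 3 lower became 0 at a log2 fold change beyond 1, and 2 higher became 1 with total counts or without the filter, 0 with scaling to GAPDH, 1 to 2 with a library left out, 4 at any fold change and 0 beyond 1. Under the H929 labels 4 lower became 8 at any fold change, and 2 higher became 1 beyond 1. In the difference of responses 6 lower became 2 with scaling to GAPDH and 2 beyond 1. With DMSO, 1 lower became 2 at any fold change and 1 to 2 with a library left out, and 6 higher became 3 beyond 1. With THZ1, 2 lower became 0 with scaling to GAPDH, 4 at any fold change and 1 beyond 1, and 4 higher became 8 with scaling to GAPDH and 1 beyond 1. For other pathway genes in JJN3, 11 lower became 24, 19 and 1 and 15 higher became 3, 26 and 3 with scaling to GAPDH, at any fold change and beyond 1, and under the H929 labels 19 higher became 10 beyond 1. For reference genes in JJN3, 1 lower became 5, 2 and 0 and 3 higher became 1, 9 and 1 under the same settings, and under the H929 labels 6 lower became 2 with scaling to GAPDH and 2 beyond 1, and 3 higher became 9, 7 and 1. Among genes called on at least 1 of the scales, scaling to GAPDH brought GUSB in JJN3 to 0 (-0.00). It changed the sign of HK2 (0.40), GPI (0.06), ALDOA (0.68) and PKM (0.05) in the difference of responses. HK2, GPI and PKM were not called there on that scale (edgeR adjusted p = 0.0816, 0.73 and 0.785). Between the THZ1 groups it changed the sign of GPI (1.13), ENO1 (1.21) and PKM (0.46). Members called on neither scale also changed sign: HK1 (-0.13), GPI (-0.11), PGK1 (-0.31) and ENO1 (-0.37) in JJN3, ALDOA (0.06), LDHA (0.03) and PKM (0.19) under the H929 labels, and LDHA (0.45) and PKM (0.41) between the DMSO groups. The same scaling changed the calls of all genes in JJN3 from 2972 lower and 2877 higher to 6531 and 1057; by construction it subtracts the change of GAPDH from every gene.

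With the replicate number as a block GAPDH was at 0.52 in JJN3 and -0.47 under the H929 labels, and the block changed no call of a member. Deviations of same-numbered libraries from their group means had r = -0.002 in JJN3 and -0.007 under the H929 labels. With 2 libraries a group, both replicate numbers give the same r by construction. Whether same-numbered libraries shared a culture or a batch was not tested. Reads in shared stretches limit GAPDH, LDHA and HK2, and the 1 and 6 counts limit HK1.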

Other observations

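The other genes of glucose metabolism under the H929 labels are given beside 32.6% of all genes called lower and 33.1% called higher there. All 7 tested genes of the pentose phosphate pathway were lower with the THZ1 label, with a median of -1.08, led by PGD (-2.35), PGLS (-1.98) and TKT (-1.87). Of 13 transport genes tested 7 were lower and 3 higher. The fructose transporter SLC2A5 went from 850 and 840 counts to 2 and 4, SLC2A4 from 85 and 65 to 1 and 3, and SLC2A12 from 51 and 28 to 3 and 3, while SLC2A13 went from 1 and 5 to 171 and 194, SLC16A7 from 0 and 6 to 365 and 310, and EMB from 1614 and 1445 to 2214 and 2396 (log2 fold change 0.55, and 0.49, under the limit, without THZ1 replicate 2). The transporters SLC2A1 (-2.06) and SLC16A3 (-1.84) were lower as well.

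Of 17 regulators tested 8 were lower, led by PFKFB4 (-2.83), MPC1 (-1.81) and DLD (-1.23), and 6 were higher, led by PFKFB2 (from 0 and 5 counts to 209 and 250), PDP1 (2.86) and PDK1 (2.33). Of 12 other isoforms and steps tested, 5 were lower, among them ENO3 (-1.48), PFKM (-1.47) and TPI1 (-0.78), and 3 were higher, among them ADPGK (1.29) and ENO2 (0.87). In gluconeogenesis FBP1 went from 113 and 94 counts to 0 and 6, while PC (3.20) and PCK2 (0.52) were higher, the latter not without THZ1 replicate 1 (0.46). In glycogen metabolism PYGL (-7.79, with 10 and 9 counts left) and PGM1 (-0.83) were lower, while PGM2L1 (2.27), GYS1 (0.62) and GYG1 (0.61) were higher.

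The small HK1 counts of the libraries labelled H929 DMSO were unequal, 1 in replicate 1 and 6 in replicate 2. Among 143 genes with 3 counts or fewer in replicate 1 and a mean of at least 20 CPM in the libraries labelled H929 THZ1, replicate 2 had a median of 2.12% of the THZ1-labelled level (quartiles 1.83% and 2.47%), and HK1 had 1.04%. The part of such counts in the HK1 values was not tested further.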
